A study of Arabidopsis thaliana with 103 samples.

Results

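The effect of losing PIAL2 alone on the seedling transcriptome was described from the RNA-seq libraries of the *pial2-1* single mutant (3 replicates) and of Col-0 wild type (3 replicates). These are 6 of the 42 RNA-seq libraries among 103 samples of the series, chosen by genotype label, and every gene and transposable element (TE) in their tables was carried through the fit. *pial2-1* is the T-DNA insertion line SALK_043892 in the Col-0 ecotype, and the Col-0 group is the one the labels give as the general wild type control, not the Col-0 made for *nrpe1-11*. All 6 libraries are from whole 12 day old seedlings grown on MS plates under 16 h light and 8 h dark at 22 °C, and polyA RNA was sequenced. The mutant is a single insertion line and no complemented line was among the RNA-seq samples used here, so the insertion cannot be told apart from other differences carried by that line. For comparison, *pial1-2*, the *pial1/2* double mutant and other mutant lines of the series (*mom2-1*, *mom2-2*, *aipp3-1*, *aipp3-2*, *phd1-2*, *phd1-4*, *morc6-3* and *morchex*, which lacks several MORC genes) were also used, again with 3 libraries each. These are the 10 other mutants counted below. Apart from them, *nrpe1-11*, a mutant of the largest subunit of RNA polymerase V, and its own Col-0 (3 libraries each) entered some levels and alternative fits.

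PIAL2 and its paralog PIAL1 are proteins of the PIAS type in *Arabidopsis* that resemble SUMO E3 ligases. They bind MOM1, a protein that keeps heterochromatin transcriptionally silent, and the resulting complex also holds MOM2, AIPP3 and PHD1. The study cites evidence that PIAL2 can silence without SUMO ligase activity. Silencing of TEs and repeats in plants otherwise rests on DNA methylation, which is set by RNA-directed DNA methylation (RdDM), maintained by dedicated methyltransferases, and acted upon by MORC ATPases.

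The *pial2-1* libraries held 14720234 to 20191990 counts and the Col-0 libraries 20808296 to 25378880 counts, against 13164594 to 33464598 in all 42 RNA-seq libraries. TEs took 0.0928 to 0.0984% of the counts in *pial2-1* and 0.0903 to 0.0954% in Col-0. Light-harvesting and Rubisco genes were abundant in all 6 libraries and 16 of 17 root marker genes passed the filter on low counts, whereas 3 of 8 floral and 0 of 8 seed marker genes did, so the libraries carried the markers of whole seedlings. Levels are given below as CPM (counts relative to library size) after TMM scaling, which corrects for library size and composition but not for gene length. In such bulk tissue, fewer cells of a type cannot be told apart from less RNA per cell.

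*PIAL2* transcript was strongly reduced but not absent in the mutant. *PIAL2* (AT5G41580, chr5:16626185-16630820 on the minus strand, TAIR10) was at 0.955, 1.29 and 1.32 CPM in *pial2-1*, against 11.6, 10.6 and 11.8 CPM in Col-0. No mutant library came near a Col-0 library, and the log2 fold change was -3.24 ± 0.14 (SE, n = 3 each; edgeR quasi-likelihood test, adjusted p = 0.000221). The level was similarly low in *pial1/2* (1.1 to 1.99 CPM), the double mutant, and in the other 9 mutants listed above no library was under 9.70 CPM. Counts do not show whether the remaining reads come from either side of the insertion. The genotyping primer pair of the line, shown here because it brackets the region tested for the insertion, matched the genome once each, with the left primer in exon 11 and the right primer in exon 15 of the 16 exons of *PIAL2*, 1081 bp apart from end to end. Both lie at chr5:16627464-16628544 and capitals are not used in them:
SALK_043892 left primer: tggtagtgccacctgaaaaac
SALK_043892 right primer: tcaagtgcgatcacatcagag

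The paralog did not pass the test. *PIAL1* was at 19.7, 17.2 and 16.1 CPM in *pial2-1*, against 18.8, 16.8 and 19.0 CPM in Col-0, with a log2 fold change of -0.05 ± 0.10 (edgeR, adjusted p = 0.936). The other genes of the complex were also within their spread, with *MOM1* at 18.4, 21.8 and 19.0 CPM in *pial2-1* against 19.4, 17.1 and 19.9 CPM in Col-0. *AIPP3*, at 36.8, 36.7 and 37.2 CPM in *pial2-1*, overlapped its Col-0 levels of 35.8, 37.3 and 33.6 CPM. *PIAL2* was thus the 1 member of the 6 genes listed for the PIAL and MOM1 complex to be called.

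Few transcripts differed. Of 19773 features tested (19622 genes and 151 TEs), 19 were called higher in *pial2-1* than in Col-0, which is 0.0961% of those tested, and 10 were called lower, which is 0.0506%. Calls needed an edgeR adjusted p under 0.05 together with a change of at least 1 on the log2 scale. The 19 comprised 15 genes and 4 TEs, and the 10 were all genes, *PIAL2* among them. No TE was called lower, and at an unadjusted p under 0.05 there were 18 TEs on the higher and 9 on the lower side. DESeq2 called 0 TEs lower and the edgeR exact test called 2. At any fold, 20 features (0.101%) passed on the higher side and 14 (0.0708%) on the lower side, so 5 features passed the test without reaching the fold limit. The median log2 fold change over all features was -0.004. In each of the 29 called features the groups did not overlap, whereas across all features tested the *pial2-1* libraries all lay above the Col-0 libraries in 6.40% and all below in 7.50%. The plot of fold change against level shows these calls standing apart from the bulk of the transcriptome.

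**Figure D1:**
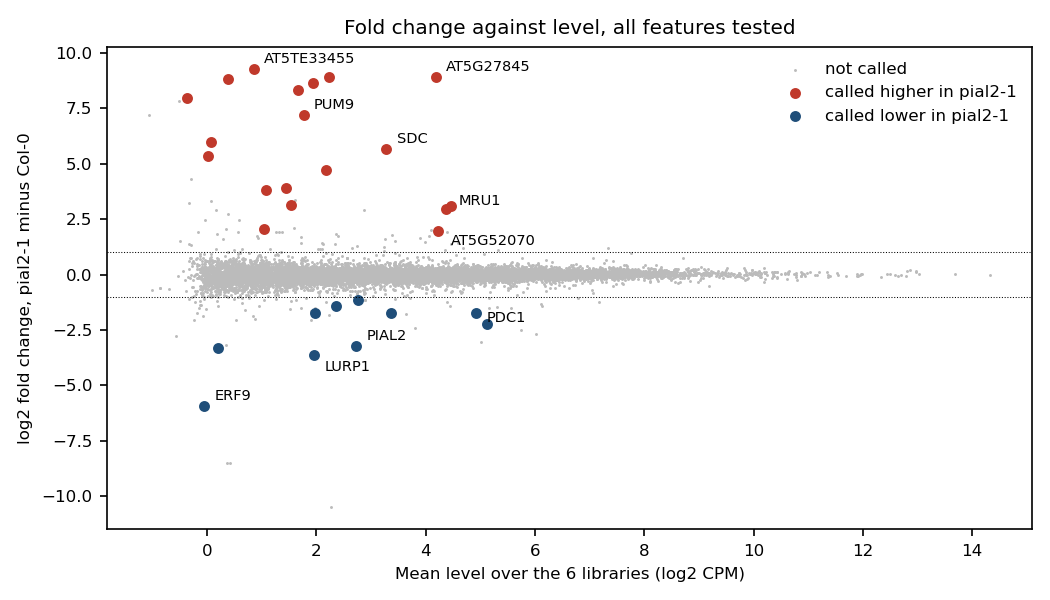
Fold change of *pial2-1* over Col-0 (y axis, log2) against the mean level over the 6 libraries (x axis, log2 CPM), one point per feature tested. Red points are the 19 features called higher in *pial2-1*, blue points the 10 called lower, grey points those not called, and dotted lines mark the fold limit of 1. *SDC* and *PIAL2* have the smallest adjusted p of the comparison (0.000221 each), and AT5TE33455 has the largest positive fitted value (9.28).

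The calls rested on few libraries. Without 1 Col-0 library, the number called fell to 10 without replicate 1, 10 without replicate 2 and 9 without replicate 3, and without *pial2-1* replicate 1, 2 or 3 it was 20, 32 and 36. Of the 29 features, 8 were called in each of these 6 fits, namely *SDC*, AT5G35480, *MRU1*, AT5G52070, AT1G36630, AT1TE93275, AT5TE33455 and *PIAL2*. The other 21 lost the call in at least 1 fit, at adjusted p-values of up to 0.304, and 0 of the 29 changed direction in any alternative. With the Col-0 libraries made for *nrpe1-11* as the control, 3474 features were called, of which 24 were among the 29. The reason for this gap between the Col-0 sets was not tested.

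*SDC* was the gene with the clearest difference. *SDC* (AT2G17690) encodes an F-box protein and is kept silent in vegetative tissue by non-CG DNA methylation over tandem repeats in its promoter. It was at 22.2, 15.4 and 22.0 CPM in *pial2-1*, against 0.422, 0.288 and 0.435 CPM in Col-0. The lowest mutant library was far above the highest wild type library, and the log2 fold change was 5.66 ± 0.24 (edgeR, adjusted p = 0.000221), with fits that left out 1 library giving 5.52 to 5.82. *pial1-2* stayed at the wild type level (0.425, 0.724 and 0.624 CPM), and the double mutant *pial1/2* reached 65.8, 54.4 and 57.7 CPM, so that every double mutant library lay above every *pial2-1* library. *morc6-3*, at 43.3, 62.3 and 86.9 CPM, and *morchex*, with a mean of 77.5 CPM, were also above *pial2-1*. *SDC* at chr2:7682162-7684083 overlaps AT2G17695 on the other strand, and the counting was not stated to use strand, so reads of the 2 cannot be told apart. In floral tissue, MORC6-Myc peaks covered the region before the gene in both replicates (chr2:7681560-7682231 and chr2:7681680-7682149), and neither PIAL2-Myc list held a peak within 1000 bp before the gene or on it. The 300 bp before the gene start (chr2:7681862-7682161, plus strand, TAIR10.1) are shown because they hold the repeats, and the capitals mark the 5 copies of the most frequent word of 10 bases found by script, AAGATAAGAT. Copies 2 to 5 are spaced 32 bp apart, and the sequence matched itself best at a shift of 32 bp (62.3% identity).
SDC upstream region: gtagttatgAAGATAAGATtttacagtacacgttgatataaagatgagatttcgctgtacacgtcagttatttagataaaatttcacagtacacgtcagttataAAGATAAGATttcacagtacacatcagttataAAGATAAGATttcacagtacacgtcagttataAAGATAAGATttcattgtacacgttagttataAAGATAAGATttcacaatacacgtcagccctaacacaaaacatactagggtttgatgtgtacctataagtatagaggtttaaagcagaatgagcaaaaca

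A neighbouring gene pair rose together. AT5G35480, which has no named function, was at 49.4, 35.9 and 36.0 CPM in *pial2-1*, against 4.56, 4.56 and 4.74 CPM in Col-0. *MRU1* (AT5G35490), named for its response in the methionine over-accumulation mutant *mto1*, was at 47.3, 31.3 and 34.6 CPM in *pial2-1*, against 5.57, 4.51 and 4.23 CPM in Col-0. All *pial2-1* libraries were well above all wild type libraries in both genes. The log2 fold changes were 3.12 ± 0.15 for AT5G35480 (edgeR, adjusted p = 0.000225) and 2.98 ± 0.19 for *MRU1* (0.000954). The rise was not particular to *pial2-1*. Of the 10 other mutants listed above, 8 had means above the highest Col-0 library for AT5G35480 and 7 for *MRU1*. In each gene 2 of the 10 means were below the lowest Col-0 library. The highest of the 10 were those of *morchex*, at 94.2 and 71.1 CPM. The genes are divergent, AT5G35480 at chr5:13687847-13689596 on the minus strand and *MRU1* at chr5:13689817-13690548 on the plus strand, with 220 bp between them. A PIAL2-Myc replicate 1 peak (chr5:13689542-13689780) and MORC6-Myc peaks in both replicates covered this interval, whereas PIAL2-Myc replicate 2 had none there. The 220 bp (chr5:13689597-13689816, plus strand, TAIR10.1) are shown because both genes start from them, and the capitals mark the 184 bases inside the PIAL2-Myc replicate 1 peak.
AT5G35480 to MRU1: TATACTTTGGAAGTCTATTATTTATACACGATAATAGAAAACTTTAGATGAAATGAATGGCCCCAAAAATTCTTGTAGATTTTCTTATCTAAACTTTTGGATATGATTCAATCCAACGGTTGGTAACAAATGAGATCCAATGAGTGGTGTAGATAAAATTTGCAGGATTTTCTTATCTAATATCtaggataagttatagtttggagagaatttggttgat

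AT5G52070 and AT1G60110 both had PIAL2-Myc and MORC6-Myc peaks in each replicate. AT5G52070, which encodes an agenet domain protein, was at 30.6, 32.7 and 28.2 CPM in *pial2-1*, against 8.69, 6.43 and 7.78 CPM in Col-0 (log2 fold change 1.99 ± 0.12; edgeR, adjusted p = 0.000727). Its level hardly varied among the *pial2-1* libraries, and *pial1/2* was close to it at 29.4, 27.6 and 26.1 CPM. AT5G52070 means were above the highest Col-0 library in 7 of the 10 other mutants, with *morchex* at 31.0 CPM, and below the lowest in 3. The PIAL2-Myc replicate 2 peak over its start had a 13.6-fold enrichment, and AT5G07875 overlaps the gene on the same strand. Against both Col-0 sets together the adjusted p of AT5G52070 was 0.426, and its log2 fold change against the Col-0 made for *nrpe1-11* was 0.75.

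AT1G60110, a mannose-binding lectin family gene at chr1:22168424-22170803, was at 3.41, 3.59 and 3.25 CPM in *pial2-1*, against 0.675, 1.01 and 0.751 CPM in Col-0. Every mutant library was above every wild type library, with a log2 fold change of 2.07 ± 0.21 (edgeR, adjusted p = 0.0129, and up to 0.122 without 1 library). Here too *pial1/2* was within the *pial2-1* range or close to it (3.09, 3.81 and 3.04 CPM). Means were above the highest Col-0 library in 7 of the 10 other mutants, with *morchex* highest at 4.83 CPM, and below the lowest in 1. The peaks lay before the gene and reached close to its start, that of MORC6-Myc replicate 1 running past it. The 300 bp before it (chr1:22168124-22168423, plus strand, TAIR10.1) are shown because the edge of the PIAL2-Myc replicate 1 peak falls in them, and the capitals mark the 147 bases inside that peak.
AT1G60110 upstream region: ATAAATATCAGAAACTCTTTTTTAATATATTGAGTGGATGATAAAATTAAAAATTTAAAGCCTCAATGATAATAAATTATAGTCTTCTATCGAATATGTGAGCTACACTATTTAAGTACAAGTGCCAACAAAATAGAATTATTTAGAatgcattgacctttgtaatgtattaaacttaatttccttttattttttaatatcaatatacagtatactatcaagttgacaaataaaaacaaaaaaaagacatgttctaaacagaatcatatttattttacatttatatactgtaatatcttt

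*PUM9* (AT1G35730), which encodes a Pumilio RNA-binding protein, was almost silent in wild type. It was at 9.07, 3.59 and 8.98 CPM in *pial2-1*, against 0.0422, 0.096 and 0 CPM in Col-0, where its 3 libraries held 3 counts in all. The ratio of the counts was 164 (95% exact interval 55.6 to 797, which covers counting error only), and edgeR gave an adjusted p of 0.00908, which rose to between 0.0772 and 0.0928 when any 1 Col-0 library was left out. Levels in *pial1/2* were higher still, at 31.6, 22.0 and 31.2 CPM. Means were above the highest Col-0 library in 4 of the 10 other mutants, with *morchex* at 3.85, 3.56 and 4.13 CPM. In *nrpe1-11* it was at 4.28, 4.65 and 4.44 CPM. *PUM9* carried 3 PIAL2-Myc and 3 MORC6-Myc peaks in each replicate, and AT1G35720 overlaps it on the other strand.

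AT5G27845, a pseudogene, was at 49.8, 16.1 and 46.6 CPM in *pial2-1*, against 0.0422, 0.192 and 0 CPM in Col-0, with a log2 fold change of 8.91 ± 0.78 (edgeR, adjusted p = 0.00609). *pial2-1* replicate 2 was the low library here, as it was for *PUM9*, yet all 3 stood far above wild type. Means of AT5G27845 were above the highest Col-0 library in 8 of the 10 other mutants, with *pial1/2* highest at 56.0 CPM. Among the 9 mutants other than *pial1/2*, the highest library was at 65.0 CPM, so the rise was not particular to *pial2-1*. Its neighbour AT5G27850, a ribosomal protein L18e/L15 family gene that starts 1.23 kb after it on the same strand, was at 524, 490 and 568 CPM in *pial2-1*, against 304, 325 and 315 CPM in Col-0. The groups did not overlap, and the log2 fold change of 0.74 ± 0.07 passed the test (edgeR, adjusted p = 0.0122) but not the fold limit. It was the 1 feature on the higher side of which this was true. AT5G27850 means were above the highest Col-0 library in 5 of the 10 other mutants, with *pial1/2* at 635 CPM, and below the lowest in 3.

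The remaining genes called higher were annotated as pseudogenes, except AT3G29639, which is uncharacterized. AT1G36630 was at 10.4, 7.90 and 6.24 CPM in *pial2-1*, against 0.0422, 0 and 0 CPM in Col-0, a ratio of 547 with an interval of 97.7 to 21676 that reflects the single Col-0 count. It kept its call in every alternative (largest adjusted p 0.0179). AT1G36680, which lies 23.5 kb away, was at 3.41, 1.74 and 1.47 CPM in *pial2-1*, against 0.0422, 0 and 0.0395 CPM in Col-0, and lost its call when any 1 Col-0 library was left out (edgeR, adjusted p up to 0.186).

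Another pair of pseudogenes, AT4G04170 and AT4G04293, lies on chromosome 4 with 58.5 kb between them. AT4G04293 was at 12.4, 5.33 and 10.0 CPM in *pial2-1*, against 0.253, 0.432 and 0.356 CPM in Col-0 (log2 fold change 4.72 ± 0.41). AT4G04170 was lower, at 2.11, 1.29 and 2.64 CPM in *pial2-1*, against 0.127, 0 and 0 CPM in Col-0. The groups did not overlap in either gene. Among the rest, AT2G11780 had 514 counts in *pial2-1* and 1 in Col-0, and AT2G15800, AT2G04460 and AT3G29639 had log2 fold changes of 3.14, 3.90 and 3.82. AT2G15790 overlaps AT2G15800 on the other strand. Of the 19 features called higher, 16 had a Col-0 mean under 1 CPM and 9 had 3 or fewer Col-0 counts in all. In *morchex* the means of AT4G04293 (80.8 CPM), AT3G29639 (51.9), AT2G04460 (20.7), AT1G36680 (18.9) and AT2G15800 (6.855) were above those in *pial2-1*. The rises of these genes were thus not particular to *pial2-1*. AT1G36630, AT4G04170 and AT2G11780 had higher means in *pial1/2* (30.58, 15.07 and 229.1 CPM) than in *pial2-1*. In the 9 mutants other than *pial1/2*, no library reached the lowest *pial2-1* library for AT1G36630, AT4G04170 or AT2G11780.

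**Figure D2:**
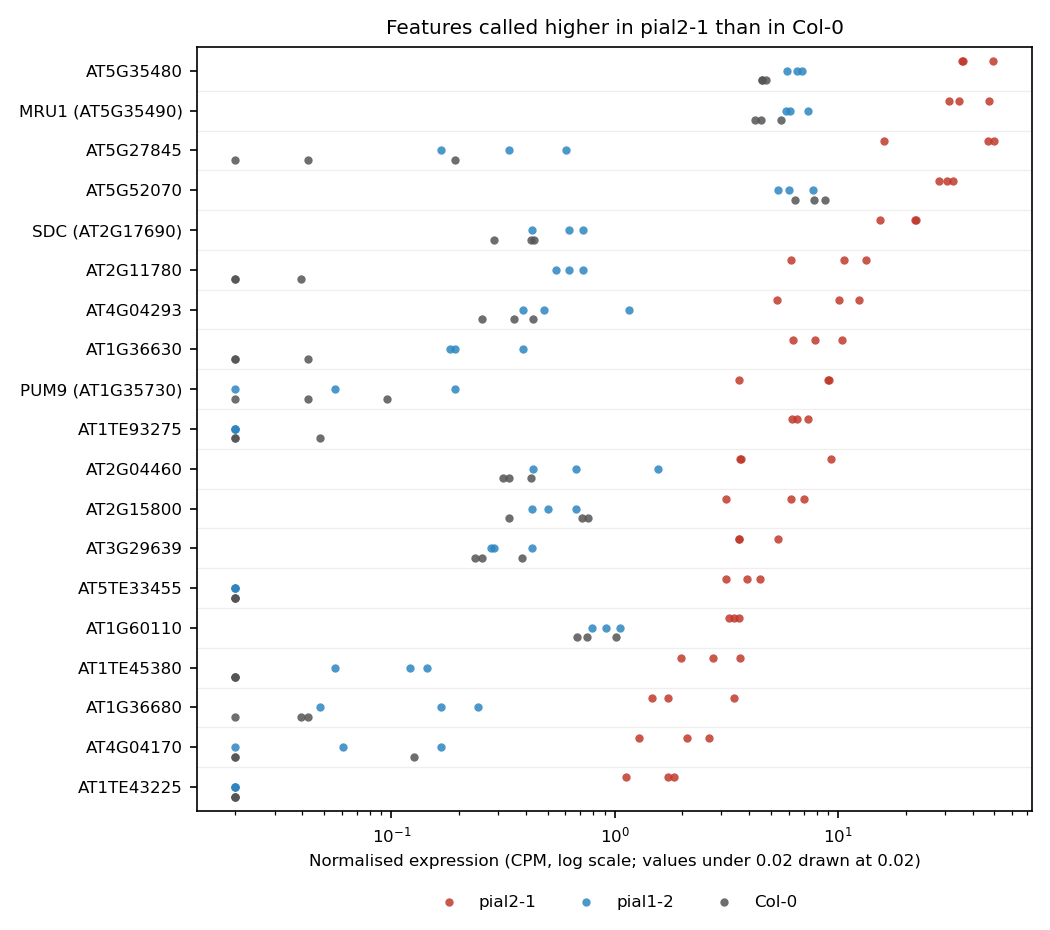
Levels (x axis, CPM, log scale) of the 19 features called higher in *pial2-1* than in Col-0, one row each, with one point per library for *pial2-1* (red), *pial1-2* (blue) and Col-0 (grey). In every row the 3 *pial2-1* points lie to the right of all Col-0 points, with *SDC* at 15.4 to 22.2 CPM in *pial2-1* and 0.288 to 0.435 CPM in Col-0.

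Of 151 TEs tested, 4 were called higher. AT1TE93275 was at 6.55, 7.34 and 6.19 CPM in *pial2-1*, against 0, 0.048 and 0 CPM in Col-0, a ratio of the counts of 458 (95% exact interval 81.7 to 18150; edgeR, adjusted p = 0.000225). The mutant libraries were close to each other, and this TE kept its call in every alternative. It was also high in *morchex* (mean 5.998 CPM), *mom2-1* (4.82), *aipp3-2* (4.04) and *pial1/2* (3.84), and in *nrpe1-11* (8.30), and had 0 counts in *pial1-2*.

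AT5TE33455 was detected almost exclusively in *pial2-1*. It was at 3.89, 4.48 and 3.15 CPM in *pial2-1* and had 0 counts in Col-0, which makes it at least 87.1-fold higher, taking 3 counts over the Col-0 group as the floor (edgeR, adjusted p = 0.00621). Of the 39 RNA-seq libraries outside *pial2-1*, 1 held a count of it, a single read in *phd1-2*. The *pial1/2* libraries had 0 counts. It was the 1 feature of the 19 called higher for which *pial2-1* had the highest mean of all 14 groups.

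The remaining TEs called higher were AT1TE45380, at 3.61, 2.75 and 1.98 CPM in *pial2-1*, and AT1TE43225, at 1.84, 1.12 and 1.73 CPM. Both had 0 counts in Col-0 and were at least 61.7-fold and at least 35.4-fold higher on the same floor. Each lost its call in 5 of the 6 fits that left out 1 library. Over all 151 TEs, the median log2 fold change was 0.01, against -0.004 over all features.

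The gene with the largest fall was *ERF9*. *ERF9* (AT5G44210) encodes a transcription factor of the AP2/ERF family. It was at 0, 0.0561 and 0 CPM in *pial2-1*, a single read, against 1.43, 1.68 and 1.54 CPM in Col-0, with 108 counts. The groups did not overlap, and the ratio of the counts was 0.0122 (95% exact interval 0.000305 to 0.0692; edgeR, adjusted p = 0.011, and up to 0.0896 without 1 Col-0 library). In *pial1/2* it was intermediate at 1.03, 0.430 and 0.210 CPM, and in the other 9 mutants that share this Col-0 control no library was under 1.25 CPM. PIAL2-Myc had 2 peaks over the gene in each replicate and MORC6-Myc had 0. The PIAL2-Myc plants were in the *pial2-1* background and their control was Col-0, so line differences cannot be told apart from binding here. *ERF9* is on the same chromosome as *PIAL2*, 1176 kb away.

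*HAK5*, a high-affinity potassium transporter, was at 0.136, 0.112 and 0.254 CPM in *pial2-1*, against 1.94, 1.44 and 1.86 CPM in Col-0. *ALMT1*, a malate transporter of the root, was at 3.82, 4.77 and 3.70 CPM in *pial2-1*, against 8.23, 9.16 and 9.84 CPM in Col-0. Both were separate from wild type in all libraries, with log2 fold changes of -3.31 ± 0.36 and -1.15 ± 0.14. Each lost the call in 5 of the 6 fits that left out 1 library (edgeR, adjusted p up to 0.128 and 0.204). Each also lost it with all 14 groups in 1 fit (0.0630). *HAK5* means were below the lowest Col-0 library in 6 of the 10 other mutants, with *pial1-2* lowest at 0.420 CPM, and above the highest in 2. *ALMT1* was at 4.25, 3.84 and 3.93 CPM in *pial1-2*, which is within the range of *pial2-1*, and its mean was below the lowest Col-0 library in each of the 10 other mutants. It was not called against the mean of those mutants (edgeR, adjusted p = 0.109), so the low level was not particular to *pial2-1*.

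*LURP1*, a defence gene induced late by the oomycete *Hyaloperonospora*, was at 1.02, 0.168 and 0.508 CPM in *pial2-1*, against 8.23, 6.96 and 4.74 CPM in Col-0. *CNGC11*, a cyclic nucleotide-gated channel, was at 2.18, 1.51 and 1.57 CPM in *pial2-1*, against 6.12, 5.18 and 5.77 CPM in Col-0. Both genes were as low in *pial1-2* (0.243 to 1.1 CPM for *LURP1* and 1.52 to 2.45 CPM for *CNGC11*), and both lost the call when all 14 RNA-seq groups shared 1 fit (edgeR, adjusted p = 0.636 and 0.411). Means below the lowest Col-0 library were found in 7 of the 10 other mutants for *LURP1* and in 6 for *CNGC11*, and *mom2-2* was as low as *pial2-1* (means of 0.499 CPM in *mom2-2* and 0.566 CPM in *pial2-1* for *LURP1*). Against the Col-0 made for *nrpe1-11*, *LURP1* was not called either (log2 fold change -1.87; edgeR, adjusted p = 0.308). AT2G25510, which is uncharacterized, was at 14.3, 6.17 and 15.9 CPM in *pial2-1*, against 53.2, 55.0 and 62.2 CPM in Col-0. AT2G25510 lost the call in 4 of the 6 fits that left out 1 library (edgeR, adjusted p up to 0.231). It also lost the call with all 14 groups in 1 fit (0.170). Its mean was below the lowest Col-0 library in 6 of the 10 other mutants, with *mom2-2* lowest at 17.45 CPM, and above the highest in 3.

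*PDC1*, which encodes the fermentative enzyme pyruvate decarboxylase, and the wound-responsive family genes AT4G33560 and AT4G10270 made up the rest. *PDC1* was at 9.96, 12.9 and 18.6 CPM in *pial2-1*, against 45.1, 56.7 and 37.3 CPM in Col-0, with a log2 fold change of -1.74 ± 0.23 (edgeR, adjusted p = 0.0445). AT4G33560 was at 3.55, 3.92 and 6.39 CPM in *pial2-1*, against 15.2, 17.2 and 13.8 CPM in Col-0, and AT4G10270 was at 2.59, 2.80 and 2.74 CPM in *pial2-1*, against 7.60, 8.11 and 5.93 CPM in Col-0. No library of either group overlapped in these genes, and each lost the call in 5 of the 6 fits that left out 1 library. Against the Col-0 made for *nrpe1-11*, in which *PDC1* was at 12.1 to 24.1 CPM, the log2 fold change of *PDC1* was -0.30 (edgeR, adjusted p = 0.435) and that of AT4G10270 was -0.72, which ended both calls. AT4G10270 was as low in *aipp3-1* (mean 2.65 CPM) as in *pial2-1* (2.71 CPM). AT4G05775 and AT4G10280 overlap AT4G10270 on the other strand.

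Genes that passed the test without reaching the fold limit on the lower side were *VSP2*, *ACO1*, AT3G27220 and AT3G61200. *VSP2*, a jasmonate-induced vegetative storage protein gene, was at 92.9, 98.3 and 104 CPM in *pial2-1*, against 170, 168 and 177 CPM in Col-0 (log2 fold change -0.81 ± 0.06; edgeR, adjusted p = 0.0038). Against the Col-0 made for *nrpe1-11* its sign reversed, with a log2 fold change of 1.65. *ACO1*, an ethylene-forming oxidase gene, was at 15.3 to 20.8 CPM in *pial2-1*, against 31.4, 33.1 and 31.6 CPM in Col-0, and its log2 fold change against the other Col-0 set was 0.05. AT3G61200, a thioesterase family gene, had a log2 fold change of -0.64 with non-overlapping groups.

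**Figure D3:**
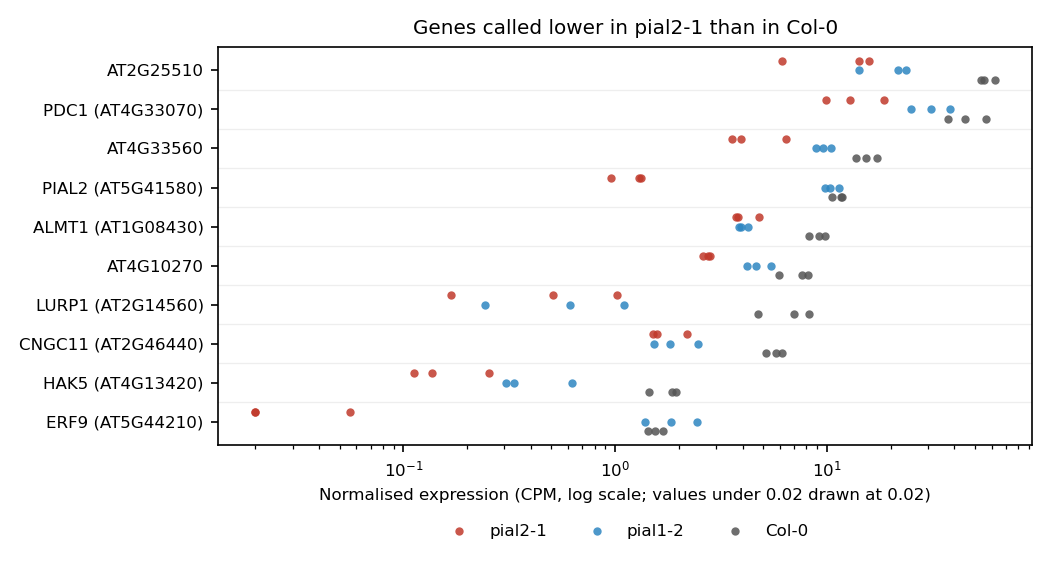
Levels (x axis, CPM, log scale) of the 10 genes called lower in *pial2-1* than in Col-0, with one point per library for *pial2-1* (red), *pial1-2* (blue) and Col-0 (grey). In every row the *pial2-1* points lie to the left of all Col-0 points. For *ALMT1*, *LURP1* and *CNGC11* the *pial1-2* points lie among those of *pial2-1* (3.84 to 4.25 CPM for *ALMT1*), and for *PIAL2* and *ERF9* they lie with Col-0.

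Of the 15 genes called higher, 8 are annotated as pseudogenes (53.3%), against 0 of the 10 called lower, 92 of the 19511 tested genes found in the RefSeq annotation (0.472%) and 3917 of all 37899 annotated genes (10.3%). Genes silent in both groups did not pass the filter on low counts, whereas most of those called higher passed it through their *pial2-1* libraries, so the share among tested genes is not a like-for-like background and nothing is read from that contrast. Within 250 kb on each side of the genes called higher, a median of 35.6% of loci were pseudogenes, against 2.80% for those called lower, 1.63% for all genes tested and 2.198% for all annotated genes. The same filter limits the comparison with all genes tested. The windows also count the called pseudogenes themselves, and neighbours such as AT5G35480 and *MRU1* share a window, so nothing is read from these medians either. Since the annotation used holds no TE positions, the share of pseudogenes stands in for the density of TEs. Per gene it ranged from 1.16% at AT5G52070 to 67.2% at AT2G11780, and was 3.29% at *SDC* and 3.05% at AT1G60110.

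ChIP-seq peaks of tagged PIAL2, MORC6 and AIPP3 from floral tissue, a readout from other samples and another tissue, were set beside the calls. A gene counted as bound when a peak overlapped its body or the 1000 bp before its start. PIAL2-Myc peaks were at 9 of the 15 genes called higher in replicate 1 (60.0%, 95% Clopper-Pearson interval 32.3 to 83.7%) and at 6 in replicate 2 (40.0%, 16.3 to 67.7%). Among all genes tested, the shares were 25.5% and 5.78%. For MORC6-Myc, 13 (86.7%) and 11 (73.3%) of the 15 had a peak, against 26.3% and 11.2% of all genes tested. AIPP3-FLAG peaks were at 1 of the 15 in each replicate (6.67%), against 22.8% and 12.4% of all genes tested.

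Peaks in both replicates were found at 6 of the 15 genes called higher for PIAL2-Myc and at 11 for MORC6-Myc, which is 40.0% and 73.3%, against 5.41% and 10.8% of all genes tested. Of the 10 genes called lower, 2 had PIAL2-Myc peaks in both replicates. These were *ERF9* and *PIAL2* itself, whose peak lies on the sequence carried by the tagged transgene. At a −log10 q of at least 5, the share of the 15 for PIAL2-Myc replicate 1 was 40.0%, against 17.3% of all genes tested. No test was made on these shares, and neighbouring genes such as AT5G35480 and *MRU1* share a peak. Most genes called higher passed the filter on low counts through their *pial2-1* libraries. As for the pseudogene share, all genes tested are therefore not a like-for-like background, and nothing is read from the contrast.

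**Figure D4:**
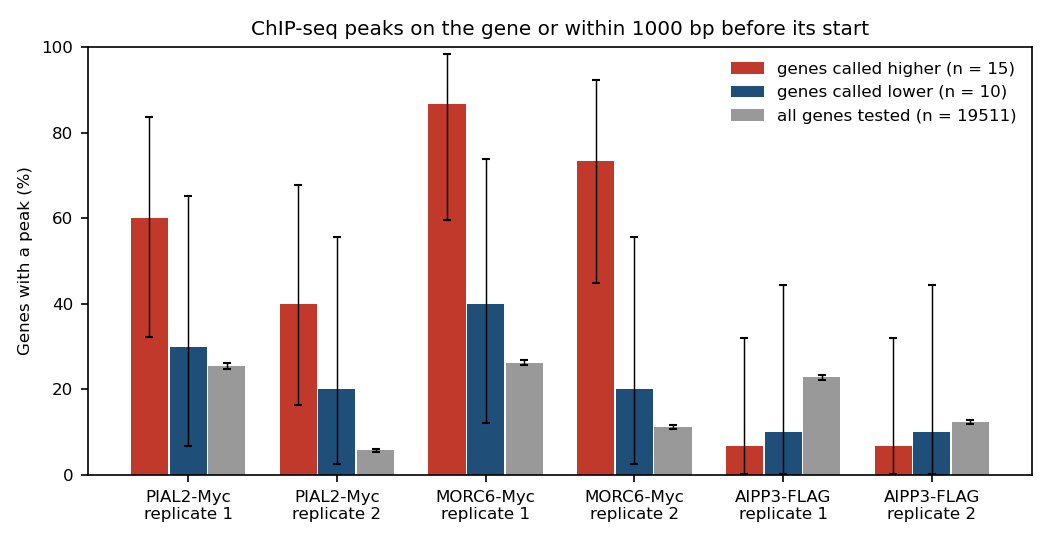
Share of genes with a peak (y axis, %) in each of 6 ChIP-seq peak lists (x axis) for the 15 genes called higher in *pial2-1* (red), the 10 called lower (blue) and all 19511 genes tested (grey), with 95% Clopper-Pearson intervals as error bars. The genes called higher have a larger share than all genes tested in the PIAL2-Myc (60.0 and 40.0%) and MORC6-Myc lists (86.7 and 73.3%) and a smaller one in the AIPP3-FLAG lists (6.67% each). All genes tested are not a like-for-like background, since most genes called higher passed the filter through their *pial2-1* libraries.

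The promoters of the called genes, taken as 250 bp before to 50 bp after the gene start, were searched on both strands for the evening element AAATATCT, the CCA1 site AAAAATCT, the G-box CACGTG and the DRE core CCGAC. Of the 15 genes called higher, 0 held the evening element, 1 the CCA1 site, 0 the G-box and 1 the DRE core. Of the 10 called lower, the counts were 1, 0, 0 and 3. Over all genes tested, 5.95% held the evening element, 8.15% the CCA1 site, 8.69% the G-box and 16.2% the DRE core.

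A direct comparison with *pial1-2* asked which differences separate the single mutants of the PIAL pair, with no Col-0 library in the fit. Of 19706 features tested, 23 were called higher in *pial2-1* than in *pial1-2* (0.117%) and 8 lower (0.0406%). Of the 19 features called higher against Col-0, 17 were called higher against *pial1-2* as well. The exceptions were AT1G36680 (edgeR, adjusted p = 0.0655) and AT2G04460 (0.301). Of the 10 genes called lower against Col-0, 9 were tested here and 2 were called, *PIAL2* and *ERF9*. Both comparisons share the *pial2-1* libraries, so these counts are not independent of each other.

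Some features called against *pial1-2* were at levels in *pial2-1* close to those in Col-0. AT5G35935, a pseudogene, was at 5.05, 5.61 and 4.67 CPM in *pial2-1*, against 0.243, 0 and 0.144 CPM in *pial1-2* (log2 fold change 5.25; edgeR, adjusted p = 0.00269), with 2.66, 5.61 and 6.56 CPM in Col-0. *SADHU3-1*, a retroelement locus, had 0 counts in *pial2-1* and in Col-0, against 1.94, 2.12 and 2.64 CPM in *pial1-2*. AT5G60250 was at 0.477, 0.505 and 0.203 CPM in *pial2-1*, against 2.25, 2.45 and 2.35 CPM in *pial1-2*, and at 0.338 to 0.632 CPM in Col-0. *SADHU3-1* and AT5G60250 were too low to be tested against Col-0. Their calls against *pial1-2* were lost with the replicate block (edgeR, adjusted p = 0.0603 for *SADHU3-1* and 0.0665 for AT5G60250) and without any 1 *pial1-2* library (0.0787 to 0.115 for *SADHU3-1* and 0.125 to 0.185 for AT5G60250).

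Against the double mutant, most features called higher were at a lower level in *pial2-1*. Of the 19, 15 had a higher mean in *pial1/2* than in *pial2-1*, and in 13 every *pial1/2* library was above every *pial2-1* library. AT2G11780 was at 13.3, 6.17 and 10.6 CPM in *pial2-1* and at 269, 171 and 248 CPM in *pial1/2*, against 0, 0 and 0.0395 CPM in Col-0. All 10 genes called lower had a higher mean in *pial1/2* than in *pial2-1*, *PDC1* for example being at 9.96 to 18.6 CPM in *pial2-1* and at 37.1 to 67.5 CPM in *pial1/2*. These levels are given side by side and were not tested.

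Set against the mean of the 10 other mutants that have the same Col-0 control, with no Col-0 library in the fit, 250 of 20741 features were called higher in *pial2-1* (1.21%) and 122 lower (0.588%). The mean is that of the fitted log2 levels, not of CPM, so a feature called higher can still be far higher in single mutants. *SDC*, for example, had a mean of 19.9 CPM in *pial2-1* and 77.5 CPM in *morchex*. This comparison and that with Col-0 share the *pial2-1* libraries, so the counts that follow are not independent of the earlier calls. Of the features called against Col-0, 17 of the 19 higher and 7 of the 10 lower were called in the same direction, *ERF9* with a log2 fold change of -6.15 and *SDC* with 3.01. Beyond these, AT1G07050, a CCT motif family gene, was at 14.8, 13.5 and 10.7 CPM in *pial2-1*, and the means of the 10 mutants ran from 3.17 to 6.39 CPM. It was called higher in this comparison (log2 fold change 1.49; edgeR, adjusted p = 1.59e-05) and not against Col-0 (4.85, 7.39 and 6.52 CPM; adjusted p = 0.127), although the groups did not overlap there either. AT4G16745, an exostosin family gene, was at 1.57, 1.01 and 1.52 CPM in *pial2-1*, against 4.05, 3.31 and 4.54 CPM in Col-0, and was called lower than the 10 mutants (log2 fold change -1.38; edgeR, adjusted p = 2.61e-06). AT1G04570 was lower too (log2 fold change -1.58), at 0.448 to 0.546 CPM in *pial2-1*, and did not reach the level needed for the test against Col-0.

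**Figure D5:**
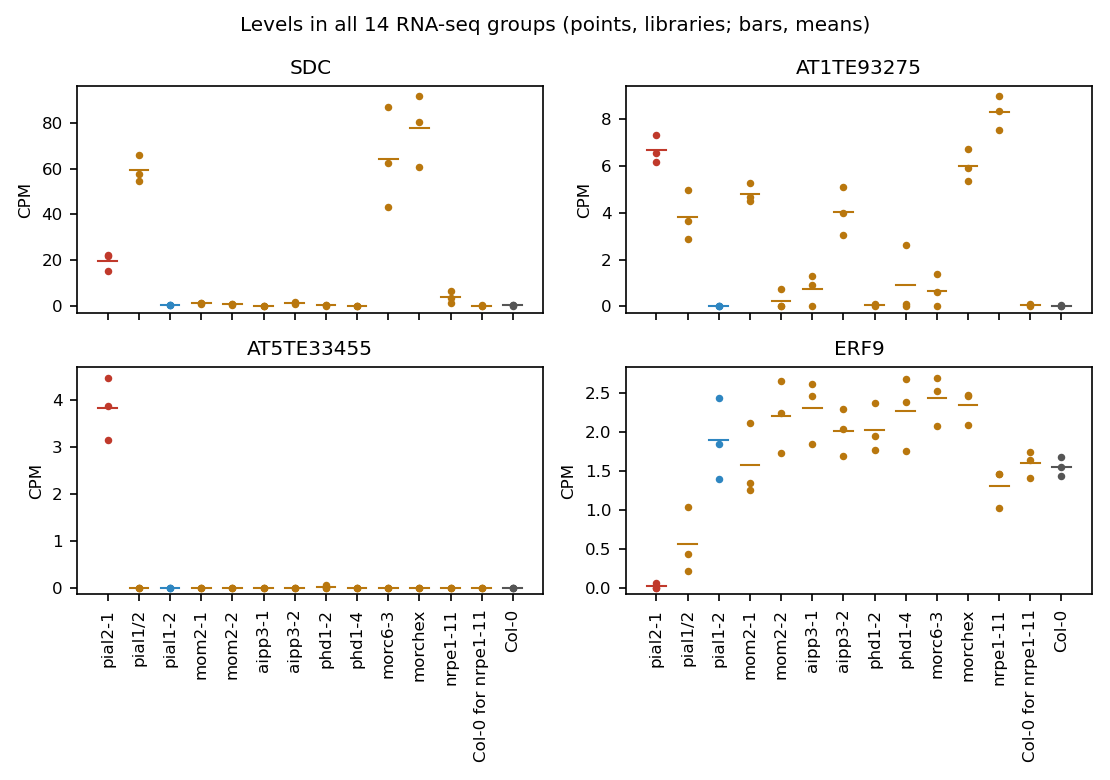
Levels (y axis, CPM) of *SDC*, AT1TE93275, AT5TE33455 and *ERF9* in all 14 RNA-seq groups (x axis), with one point per library, bars for group means, *pial2-1* in red, *pial1-2* in blue, Col-0 in grey and the other groups in brown. AT5TE33455 is near 0 in every group but *pial2-1* (mean 3.84 CPM), *SDC* is higher in *morchex* (77.5 CPM) than in *pial2-1* (19.9 CPM), and *ERF9* is lowest in *pial2-1*.

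No gene of the silencing machinery other than *PIAL2* was called. Of the SUMO pathway genes 14 were tested, of the MORC genes 6, of the RdDM genes 25 and of the methylation maintenance and demethylation genes 16, and 0 of them were called or passed the edgeR test at any fold. At an unadjusted p under 0.05 there were 0 SUMO, 0 MORC, 2 RdDM and 2 methylation genes, against 7.97% of all features. DESeq2 and the edgeR exact test each called 0 of them, and each passed 1 RdDM and 1 methylation gene at any fold, both higher in *pial2-1*. In 5 of the 25 RdDM genes (20.0%) the *pial2-1* libraries all lay below the Col-0 libraries, against 7.50% of all genes tested, and in 1 they all lay above. *CLSY1*, which recruits RNA polymerase IV, was at 15.1, 14.5 and 15.68 CPM in *pial2-1*, against 11.0, 10.6 and 10.7 CPM in Col-0, without overlap (log2 fold change 0.48; edgeR, adjusted p = 0.112). *ROS1*, a DNA glycosylase that removes methylated cytosine, was at 63.3, 63.7 and 60.6 CPM in *pial2-1*, against 43.8, 51.5 and 45.4 CPM in Col-0 (0.41; adjusted p = 0.166). *FWA*, a homeobox gene silenced by promoter methylation, had 3 counts in *pial2-1* and 0 in Col-0 and was not tested.

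Other gene groups gave few calls. Of 16 salicylic acid defence genes tested, 0 were called and 5 had an unadjusted p under 0.05 on the lower side (31.3%, against 4.29% of all genes tested), with a median log2 fold change of -0.27, against -0.004 over all genes. DESeq2 called 1 of them lower and the edgeR exact test 2. *SARD1*, a regulator of salicylic acid synthesis, was at 1.36, 1.57 and 1.88 CPM in *pial2-1*, against 4.77, 5.57 and 3.56 CPM in Col-0, with an edgeR adjusted p of 0.0685. *WRKY70*, a defence transcription factor, was at 47.8, 67.5 and 104 CPM in *pial2-1*, against 118, 170 and 163 CPM in Col-0 (adjusted p = 0.398). Of the 15 jasmonate, wound and touch genes tested, *VSP2* was the 1 that passed at any fold. Of the 11 morning clock, 12 evening clock and 11 photoperiod genes tested, 0 were called by edgeR, DESeq2 or the exact test, with 0, 1 and 0 at an unadjusted p under 0.05.

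The 25 light-harvesting and Rubisco, 12 cold-regulated, 4 heat shock, 7 flavonoid, 6 phosphate starvation, 5 nitrate, 9 sulfur and glucosinolate and 5 carbon starvation genes tested also gave 0 calls with edgeR, DESeq2 and the exact test. Their counts at an unadjusted p under 0.05 were 2 for light harvesting, 1 for phosphate, 1 for nitrate and 0 for the others.

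All 14 iron homeostasis genes had a positive log2 fold change, with a median of 1.08, but 0 were called by edgeR, DESeq2 or the exact test, 0 had an unadjusted p under 0.05, and the groups overlapped in each. *BHLH38*, an iron deficiency transcription factor, was at 11.7, 69.7 and 2.54 CPM in *pial2-1*, against 1.52, 12.0 and 7.39 CPM in Col-0. *IRT1*, the main iron uptake transporter of the root, was at 42.2, 82.0 and 8.88 CPM in *pial2-1*, against 4.35, 27.0 and 38.6 CPM in Col-0. *pial2-1* replicate 2 was the highest library and replicate 3 was within the wild type range in both genes.

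Markers of other organs gave no calls. Of 16 root marker genes tested, 0 were called by edgeR, DESeq2 or the exact test, and 1 higher and 2 lower had an unadjusted p under 0.05, with a median log2 fold change of -0.15, and their summed level was 216 to 283 CPM in *pial2-1* and 263 to 276 CPM in Col-0. In 4 root markers (25%) all *pial2-1* libraries lay below the Col-0 libraries, against 7.50% of all genes tested, and in 1 all lay above. Of 3 floral markers tested, 2 had an unadjusted p under 0.05 on the higher side, but the groups overlapped in each. The summed level of the floral markers was 7.97 to 20.2 CPM in *pial2-1* and 7.17 to 9.44 CPM in Col-0, the highest value being that of *pial2-1* replicate 2, in which *PI* reached 13.5 CPM. The part of such tissue shares in the called genes was not tested.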

How the data were processed

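RNA-seq of whole seedlings was taken from tables in which the authors gave, per gene and TE, an expected count, TPM and FPKM, made by alignment to TAIR10 with Bowtie2 and RSEM at default settings. The deposited expected counts were rounded and used for all tests, and the authors' TPM and FPKM were not used for any printed value. The counting was not stated to use strand. ChIP-seq peaks were called by the authors with MACS2 2.1.2 per library against Col-0, and the deposited lists give a fold enrichment and −log10 q values. Positions are from TAIR10.1, within which no peak ran past a chromosome end, and 0 columns belonged to no sample.

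Counts were analysed in R 4.3.3 with edgeR 4.0.16 (TMM, CPM of at least 1 in at least 2 libraries of a comparison, quasi-likelihood test, Benjamini-Hochberg adjustment over all features), without a block for replicate number. Library totals were 13164594 to 33464598. Intervals are exact and cover counting error only. The reporting summary of the study says that replicates were made independently, while the labels do not say which plants or cultures they came from, so p-values measure the spread between these libraries. Libraries of 1 group differed by more than sampling noise (chi-square per degree of freedom of 7.85 to 14.1 in *pial2-1* and Col-0). On simulated data for *pial2-1* against Col-0 with 200 changed of 19618 features, 100 of 100 at fold 4 and 57 of 100 at fold 2 were called, with 0 false calls. These rates hold for the simulated data only. In the measured data, 21 of the 29 calls were lost in at least 1 fit that left out a library.

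Named were the genes mutated in the RNA-seq lines, the called features with the largest folds, a mean CPM of at least 1 and no overlap (12 genes and 6 TEs per direction), the 6 genes with the smallest adjusted p, called members of the gene lists, *SDC* and *FWA*, and the 3 largest per direction in the other comparisons. The remaining called features, those passing at any fold and the single list members with values were named after their values were seen, and the members and lists were chosen with earlier results of these data known. Alternatives were DESeq2 1.42.0, the edgeR exact test, relative log expression scaling, other filters, other controls, a replicate block, leaving out single libraries and, added after seeing the data, thinning to the shallowest library. Python 3.11.15, scipy 1.17.1 and pandas 2.3.3 were used for peaks and sequences.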

Additional observations from a re-analysis of the deposited data

How the results depend on the processing

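Of 29 features called in *pial2-1* against Col-0, 7 were called in every alternative in which they were tested and 0 changed sign. The features called higher (19) numbered 32 with DESeq2, 34 with the exact test, 9 at a CPM of at least 5 in 3 libraries, 37 with all 14 groups in 1 fit and 1724 against the Col-0 made for *nrpe1-11*. Those called lower (10) numbered 36, 48, 5 and 1750 under DESeq2, the exact test, the stricter filter and that Col-0, 20 without a filter and 2 against both Col-0 sets. Against *pial1-2*, those called higher (23) and lower (8) numbered 38 and 15 with DESeq2, 41 and 22 with the exact test, and 11 and 3 with the stricter filter. Against the mean of the 10 mutants, 1900 and 1280 passed at any fold. Without single libraries, those called higher and lower ranged from 7 to 22 and from 1 to 20 against Col-0, from 9 to 29 and from 1 to 14 against *pial1-2*, and from 165 to 319 and from 80 to 149 against the mean of the 10 mutants. The cause was not tested.

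The replicate numbers were shared between the groups, but residuals of same-numbered libraries correlated at 0.252, 0.0908 and 0.122, so they were not treated as pairs. With the replicate block, 19 genes were called lower in *pial2-1* than in Col-0 and 39 features in all, 28 of them among the 29, and 5 were called lower than in *pial1-2*.

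The share of all genes tested with a peak moved with the window and threshold. For the gene body alone, 2000 bp upstream and a −log10 q of at least 5 it was 19.9, 25.3 and 15.6% (AIPP3-FLAG replicate 1), 10.6, 13.9 and 9.05% (replicate 2), 17.2, 30.7 and 23.0% (MORC6-Myc replicate 1), 7.24, 13.4 and 8.93% (replicate 2), 18.9, 29.2 and 17.3% (PIAL2-Myc replicate 1), and 3.51, 6.92 and 4.03% (replicate 2). For the 15 genes called higher, under the same settings, it was 46.7, 66.7 and 40.0% (PIAL2-Myc replicate 1), 33.3, 40.0 and 33.3% (replicate 2), 86.7, 93.3 and 86.7% (MORC6-Myc replicate 1), 53.3, 73.3 and 53.3% (replicate 2) and 6.67% throughout for AIPP3-FLAG.

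Some log2 fold changes reversed in sign. Against the Col-0 made for *nrpe1-11* they were -0.30 for *MORC6*, -0.40 for *PHD1*, 0.045 for *ACO1*, -0.077 for *AIPP3*, 0.016 for *MORC2* and 1.65 for *VSP2*, and against both Col-0 sets -0.10 for *MORC6*, -0.20 for *PHD1* and -0.011 for *AIPP3*. *PHD1* was at -0.00071 without a filter, -0.0053 with the replicate block and -0.016 after thinning, and *NRPE1* at -0.012 after thinning. Without single libraries, *PIAL1* ranged from -0.14 to 0.011, *PHD1* from -0.18 to 0.13, *NRPE1* from -0.011 to 0.12 and *MORC1* from -0.029 to 0.079.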

Other observations

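A list of 23 genes known to respond to low oxygen was drawn up after the low values of *PDC1*, *ACO1*, AT3G27220, AT4G10270 and AT4G33560, which are among its members, had been seen. Its counts therefore follow in part from that choice and are given as a description, with no test. Of the 23, 3 were called lower and 5 passed the edgeR test at any fold. These 5, which include the 3, are the genes just named, so both counts follow wholly from the choice. No other member passed. Of the 23, 22 had a negative log2 fold change with a median of -0.83, and in 19 (82.6%) the *pial2-1* libraries all lay below the Col-0 libraries, against 7.50% of all genes tested. The summed level was 408 to 579 CPM in *pial2-1* and 816 to 876 CPM in Col-0. *ADH1*, the alcohol dehydrogenase of fermentation, was at 27.5, 38.5 and 51.8 CPM in *pial2-1*, at 76.8, 78.7 and 60.3 CPM in *pial1-2*, and at 100, 98.3 and 99.3 CPM in Col-0 (edgeR, adjusted p = 0.0621). *SUS4*, a sucrose synthase gene, was at 14.5, 16.0 and 32.2 CPM in *pial2-1*, against 60.9, 55.7 and 57.4 CPM in Col-0. *HB1*, a non-symbiotic haemoglobin gene, was at 19.5, 18.6 and 32.0 CPM in *pial2-1*, against 49.0, 51.2 and 43.8 CPM in Col-0, and *PDC2*, at 80.2, 75.3 and 74.1 CPM in *pial2-1* against 79.1, 75.9 and 67.6 CPM in Col-0, was the 1 member with a positive value. *pial2-1* replicate 3 was the mutant library nearest to wild type in *ADH1*, *SUS4*, *HB1* and *PDC1*. DESeq2 called 8 of the 23 lower and the edgeR exact test 9. Against the Col-0 made for *nrpe1-11*, the log2 fold changes of *PDC1* and *ACO1* were -0.30 and 0.05.

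Just outside the limit for a call were AT4G38825, *ADH1* and *SAD6*, with adjusted p-values of 0.0593, 0.0621 and 0.0621, and just inside were *PDC1* (0.0445), AT4G04170 (0.0434) and AT1TE43225 (0.0398).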
